A study of Mus musculus with 6 samples.

Results

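The Notch pathway was described here through 36 genes that encode its receptors, their ligands, the enzymes that mature and cut them, the nuclear complex, the effector genes and modulators. They were picked by gene symbol from the 24503 symbols of the count table, and all 36 passed the filter on low counts that left 13683 genes for testing. The libraries came from neural stem cells of the mouse cortex at E13.5, enriched as neurospheres and grown on laminin with FGF at 10 ng/mL and EGF at 20 ng/mL. The KO group (3 libraries) carried homozygous floxed alleles of Phf2, a gene for a histone demethylase of the Jumonji family, together with the Nestin-Cre transgene B6.Cg-Tg(Nes-cre)1Kln/J. The WT group (3 libraries) was also Phf2 flox/flox, and its labels name no Cre, so the floxed alleles are shared by both groups and the transgene is not. Nestin regulatory sequence drives the recombinase in neural progenitors, so a cell in which Cre did not act keeps Phf2. The labels do not say that libraries of a group came from separate cultures or embryos, so each p-value reflects the spread among these particular samples, and that spread may be technical.

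Notch receptors are cut when a ligand of a neighbouring cell binds them. ADAM proteases make the first cut, gamma-secretase the next, and the freed intracellular domain enters the nucleus, where it joins RBPJ and a Mastermind-like coactivator and switches on Hes and Hey repressor genes. In the embryonic cortex this signal is known for keeping radial glia undifferentiated, since HES1 and HES5 repress proneural genes such as Neurog2, while differentiating cells present delta-like ligands.

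Total counts were 33413444 to 46890314 per library. Phf2, the targeted gene, had 56.3, 48.1 and 48.8 CPM (counts scaled to library size, by TMM) in KO 1, 2 and 3, against 109, 90.4 and 77.8 CPM in WT 1, 2 and 3. All KO libraries lay below all WT libraries, and reads remained in KO. Its log2 fold change, KO over WT, was −0.85 ± 0.150 (SE), and edgeR's quasi-likelihood test gave an adjusted p of 0.182 with no block and 0.000123 with the replicate number as a block. Libraries numbered 1 stood apart from numbers 2 and 3 in both genotypes, and the labels do not say what the number marks. Summed markers of neural stem cells and radial glia were 9241 to 10116 CPM in KO and 9350 to 10399 CPM in WT. Within that sum 2 of 10 markers were called with the block, against 9.79% of all genes tested. These were Hopx and Prom1, both lower in KO with no overlap between the groups (log2 fold changes −1.10 ± 0.0936 and −1.35 ± 0.130). The sum also hides differences between replicate numbers. Nes averaged 1743 CPM in number 1, against 741 CPM in numbers 2 and 3, while 9 of 10 markers were lower in number 1. Between number 1 and the others 7 of 10 were called, against 57.6% of all genes. Summed microglial markers were 0.731 to 1.19 CPM in KO and 0.421 to 0.804 CPM in WT, and endothelial markers 1.41 to 2.02 CPM in KO and 1.39 to 2.11 CPM in WT. In each of these lists 1 marker (Aif1 of 5 and Cdh5 of 6) had 0 counts in every library, while P2ry12 had 15 to 46 counts and Kdr 41 to 58.

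Per kilobase of exon, Notch1 and Notch3 led the receptors in every library, while the order of ligands and effectors differed between replicate numbers. On this scale, in CPM per kb, Notch1 averaged 47.2 ± 15.4 in KO and 45.8 ± 16.7 in WT (SD, n = 3 each), and Notch3 averaged 30.6 ± 15.3 in KO and 27.4 ± 12.4 in WT. Notch2 averaged 4.54 ± 0.887 in KO and 3.92 ± 0.994 in WT, and Notch4 0.176 ± 0.0607 in KO and 0.171 ± 0.109 in WT. The spreads of Notch1 and Notch3 overlapped in both groups, but within every library Notch1 lay above Notch3. Both lay above Notch2 and Notch4 in every library. Among ligands Dll1 averaged 31.0 ± 12.6 CPM per kb in KO and 27.6 ± 12.1 in WT, and Dll3 16.8 ± 8.32 in KO and 15.1 ± 7.21 in WT. Jag1 averaged 8.45 ± 0.399 CPM per kb in KO and 9.25 ± 1.18 in WT, and in number 1 it lay above Dll3, at 8.83 against 7.17 in KO 1 and 10.4 against 6.83 in WT 1. Jag2 and Dll4 did not exceed 0.208 CPM per kb in any library. Hes5 averaged 153 ± 118 CPM per kb in KO and 124 ± 95.7 in WT, the highest of the 36 means, and this rank rests on numbers 2 and 3. In number 1 it had 17.2 CPM per kb in KO and 13.4 in WT, below Nrarp (30.7 in KO, 23.4 in WT), Hes1 (27.3 in KO, 25.9 in WT) and Lfng (89.2 in KO, 89.3 in WT). Heyl and Hey2 had the lowest means.

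**Figure D1:**
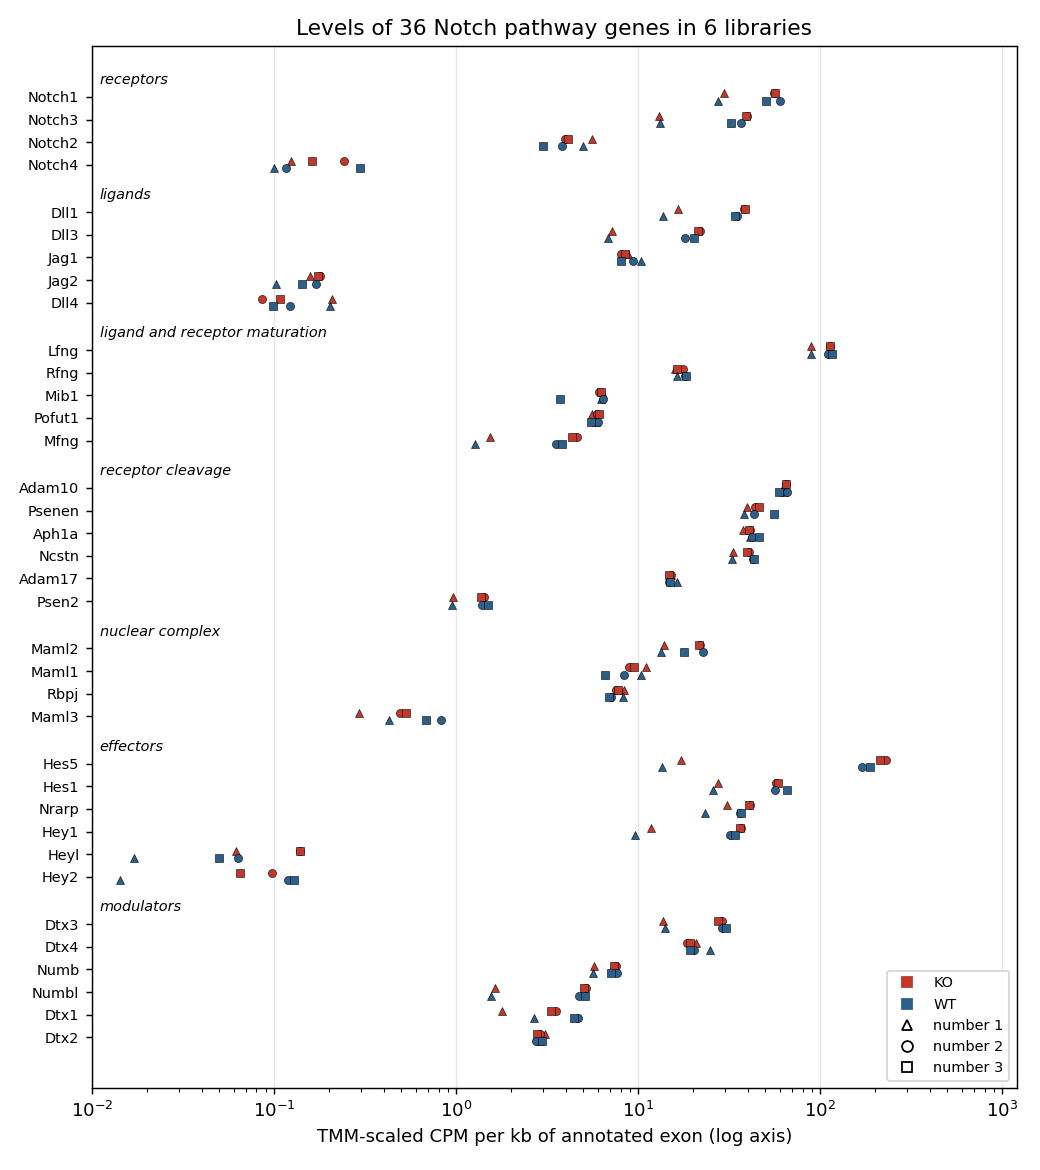
Level of each of the 36 Notch pathway genes in CPM per kilobase of exon (log axis), 1 point per library, KO and WT, grouped by role. Levels run from 229 CPM per kb (Hes5 in KO 2) down to Heyl and Hey2, and Hey2 in KO 1, with 0 counts, has no point on the log axis.

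Between the genotypes few Notch pathway genes moved: Hes5 and Heyl were higher and Maml3 and Dtx1 lower in KO when libraries were compared within replicate numbers, and no member was called when they were not. Called means an adjusted p under 0.05 over the 13683 genes tested (edgeR's quasi-likelihood F-test, Benjamini-Hochberg). Without the block 0 of 36 members were called, against 0.0585% of all genes tested (8 genes), and 0 members had an unadjusted p under 0.05, against 795 of all genes. With the replicate number as a block 4 of 36 were called (11.1%), against 9.79% of all genes tested, so the share of members lay near that of all genes. Hes5 and Heyl rose in KO with the block (2 members, 5.56%, against 3.33% of genes higher), and Maml3 and Dtx1 fell (2 members, 5.56%, against 6.46% of genes lower). The median log2 fold change was 0.03 over the members, with or without the block, and 0.01 over all genes tested. In the other fits the members called numbered 5 with number 1 as the block (10.6% of all genes called), 1 with KO 2 and KO 3 summed (4.94%), 0 in numbers 2 and 3 alone (5.40%), 2 in DESeq2 with the block (8.43%) and 0 in DESeq2 without it (1.59%). They numbered 1, 2 and 6 in blocked fits without replicate 1 (7.53%), 2 (9.07%) and 3 (10.6%). In no member did all KO libraries lie on 1 side of all WT libraries, which 11.2% of tested genes showed. With the block, the 95% interval of the log2 fold change lay inside ±0.25 for 14 members and inside ±0.5 for 27, and without it for 2 and 13. Hey2 and Heyl were the members whose blocked interval reached past ±1.

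**Figure D2:**
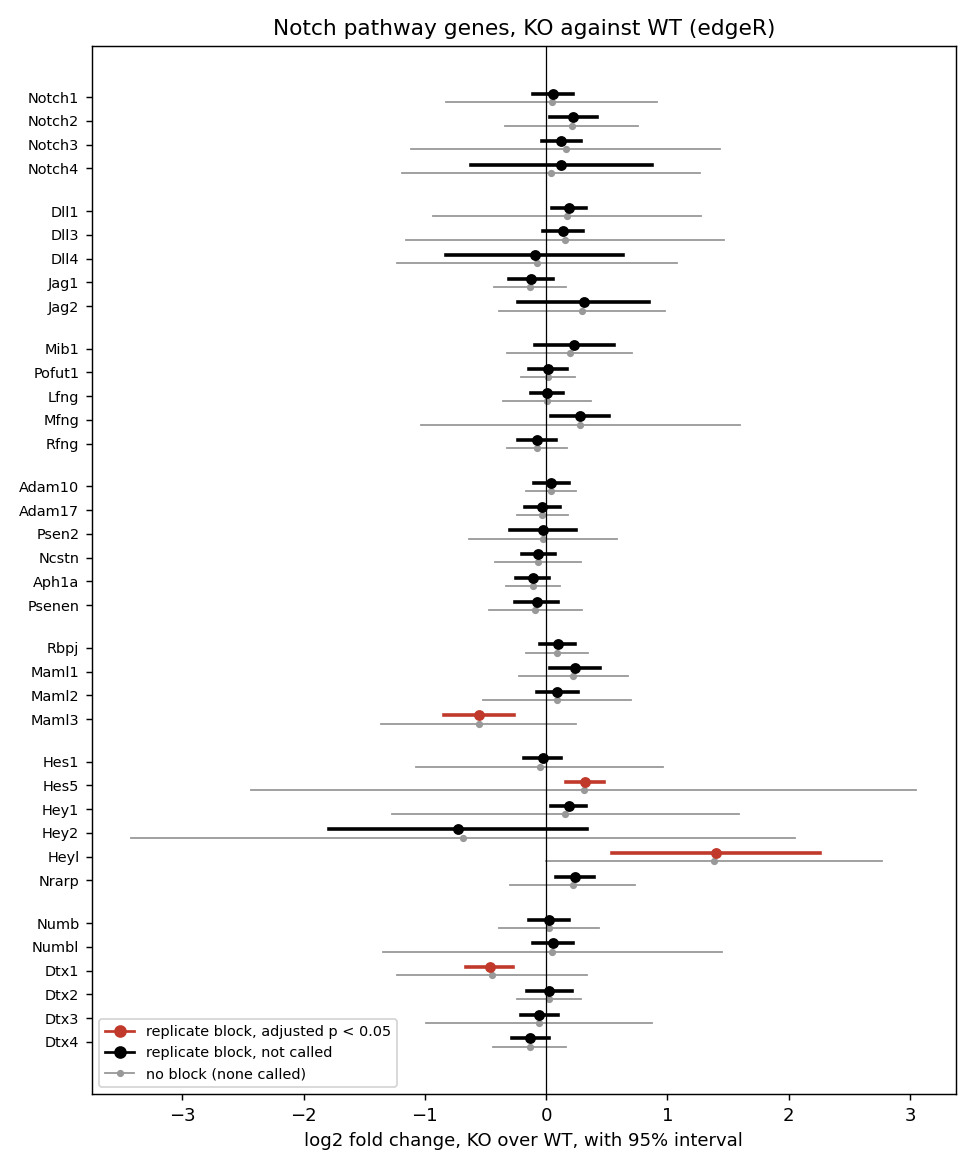
Log2 fold change, KO over WT, of the 36 Notch pathway genes with the replicate number as a block, in black or red, and without a block, in grey, with 95% intervals. Red marks the 4 members called with the block, Hes5 and Heyl above 0 and Maml3 and Dtx1 below it, and the grey intervals are wider for genes that differ between replicate numbers.

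No receptor was called between the genotypes with or without the block. Notch1, a receptor of cortical progenitors, had 419, 795 and 804 CPM in KO 1, 2 and 3, against 389.7, 853 and 713 CPM in WT 1, 2 and 3. Both genotypes were low in their library numbered 1 and their ranges overlapped. The log2 fold change was 0.06 ± 0.0738 (SE) with the block (95% interval −0.11 to 0.22, adjusted p = 0.690). Notch3, a receptor also known from mural cells, had 105, 320.4 and 317 CPM in KO and 107, 296 and 261 CPM in WT. Its log2 fold change was 0.12 ± 0.0716 with the block, with adjusted p = 0.337. The pattern over the numbers was that of Notch1, with the lowest value in number 1 of each genotype. Notch2 had 59.9, 42.5 and 44.4 CPM in KO and 53.6, 40.9 and 32.3 CPM in WT, highest in number 1 of each genotype. Its log2 fold change was 0.22 ± 0.0868, with adjusted p = 0.148 with the block. Notch4, a receptor known mainly from endothelium, had 41, 83 and 44 counts in KO, against 37, 38 and 113 counts in WT. Its blocked interval, −0.62 to 0.87 on the log2 scale, shows how little these counts resolve.

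None of the 5 ligands was called with all 6 libraries either, and their blocked log2 fold changes ran from −0.12 (Jag1) to 0.31 (Jag2). Dll1, the delta-like ligand that differentiating progenitors present, had 69.5, 160.5 and 163 CPM in KO 1, 2 and 3, against 57.5, 148 and 144 CPM in WT 1, 2 and 3. Each KO library was above the WT library of its number, but the ranges overlapped, and the log2 fold change of 0.19 ± 0.0631 had adjusted p = 0.0918 with the block. Jag1, a ligand of the Serrate family, had 51.5, 46.8 and 49.4 CPM in KO and 60.4, 54.7 and 46.7 CPM in WT. The blocked log2 fold change was −0.12 ± 0.0806, with adjusted p = 0.395, and Jag1 was called, lower in KO, without replicate 3 (0.0426). Dll3, which in the mouse acts inside the cell that makes it, had an adjusted p of 0.300 with the block. Dll4 and Jag2 were read from few counts, at 14 to 36 for Dll4.

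The 5 genes of ligand and receptor maturation and the 6 of receptor cleavage gave no call with all 6 libraries, with or without the block. Lfng, a fringe glycosyltransferase that alters which ligand a receptor answers to, had 223, 285 and 284 CPM in KO, against 224, 275 and 289.7 CPM in WT. The blocked log2 fold change was 0.01 ± 0.0607 (95% interval −0.13 to 0.14), a narrow interval around 0. Mib1, the ubiquitin ligase that ligands need for endocytosis, had 69.6, 66.7 and 68.3 CPM in KO and 68.2, 69.9 and 40.6 CPM in WT. The low value of WT 3 set its spread, with log2 ratios of KO over WT of 0.03, −0.07 and 0.75 in numbers 1, 2 and 3. Its blocked log2 fold change of 0.23 ± 0.142 had adjusted p = 0.378. Mib1 was called without replicate 2 (0.0113), a fit in which the remaining ratios, 0.03 and 0.75, lie far apart. Among the WT libraries, WT 3 was also lowest for Notch2 (32.3 CPM) and Maml1 (36.3 CPM), but highest for Psenen (71.0 CPM). Over the other genes of this role (Pofut1, Mfng and Rfng), blocked log2 fold changes were −0.08 to 0.28. Adam10, the protease of the first cut, had 316, 317 and 319 CPM in KO, against 312, 323 and 290.1 CPM in WT. Ncstn, a subunit of gamma-secretase, had 131, 162 and 157 CPM in KO and 130.3, 169 and 173 CPM in WT. Over the 6 cleavage genes the blocked log2 fold changes were −0.11 (Aph1a) to 0.04 (Adam10), and the lowest adjusted p was 0.318. Exons of Adam17, Aph1a, Ncstn, Psenen and the ligand Dll4 overlap other counted genes on the opposite strand, and without a stated strand setting their reads cannot be told apart.

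In the nuclear complex, Rbpj and 2 of its 3 Mastermind-like coactivators were not called, and Maml3 fell in KO with the block. Rbpj, the DNA-binding partner of every Notch receptor, had 107, 96.8 and 98.98 CPM in KO, against 105, 90.4 and 88.4 CPM in WT. The blocked log2 fold change was 0.09 ± 0.0636, with adjusted p = 0.419. Maml2 had 91.7, 144 and 142 CPM in KO and 88.0, 150.3 and 117 CPM in WT, also not called (adjusted p = 0.506). Maml3 (chromosome 3, 51685907 to 52105076, minus strand, GRCm38) had 3.06, 5.16 and 5.59 CPM in KO, from 126, 219 and 188 counts, against 4.501, 8.65 and 7.16 CPM in WT, from 207, 349 and 338 counts. Each KO library was below the WT library of its number, by log2 ratios of −0.55, −0.75 and −0.36, while the groups as a whole overlapped. The log2 fold change was −0.55 ± 0.130 with the block (adjusted p = 0.0259) and −0.56 ± 0.332 without it (adjusted p = 0.999). The blocked call was lost without replicate 1 (adjusted p = 0.0536), without replicate 2 (0.157), with KO 2 and KO 3 summed (0.0773) and in DESeq2 with the block (0.0632). Maml3 was the least abundant of the 3 coactivators, at 0.439 ± 0.129 CPM per kb in KO and 0.646 ± 0.201 in WT, against 19.1 ± 4.51 in KO and 18.0 ± 4.73 in WT for Maml2.

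The effector genes are those that the nuclear complex is known to switch on. The 250 bases before the RefSeq start are shown for the 3 effectors found in the promoter table (GRCm38.p6), because they carry the letters of the RBPJ motif or, for Nrarp, do not. Capitals mark GTGGGAA, or TTCCCAC where the motif lies on the other strand. Hes5 is at chr4:154960673-154960922 (plus strand), Hey2 at chr10:30842784-30843033 (minus strand) and Nrarp at chr2:25180508-25180757 (plus strand).
Hes5: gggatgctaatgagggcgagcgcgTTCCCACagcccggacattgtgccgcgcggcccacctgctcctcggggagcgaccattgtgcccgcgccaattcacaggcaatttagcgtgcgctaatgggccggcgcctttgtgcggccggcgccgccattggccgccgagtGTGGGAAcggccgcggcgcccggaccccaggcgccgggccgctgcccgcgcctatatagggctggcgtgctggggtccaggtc
Hey2: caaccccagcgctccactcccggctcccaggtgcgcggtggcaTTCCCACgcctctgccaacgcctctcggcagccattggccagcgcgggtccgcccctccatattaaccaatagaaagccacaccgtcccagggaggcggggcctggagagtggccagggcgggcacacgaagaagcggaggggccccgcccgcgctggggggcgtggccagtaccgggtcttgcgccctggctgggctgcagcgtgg
Nrarp: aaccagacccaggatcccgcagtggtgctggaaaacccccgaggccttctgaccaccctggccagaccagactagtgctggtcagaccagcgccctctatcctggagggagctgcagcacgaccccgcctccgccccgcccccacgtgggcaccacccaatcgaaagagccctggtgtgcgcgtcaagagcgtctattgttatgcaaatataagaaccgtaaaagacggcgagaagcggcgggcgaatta
Hes5 held the motif on both strands, 226 and 83 bases before the start, Hey2 held it 207 bases before the start, and Nrarp did not hold these letters in this window. Both strands were searched. At least 1 promoter with it was found for 4 of the 29 members in the table, the other two being Lfng and Psen2, and for 6.18% of the 27025 gene symbols there, or 5.42% of the 32851 promoters. A match is a description of the letters and not of binding.

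Of the 6 effectors, Hes5 and Heyl rose in KO with the block, while Hes1, Hey1, Hey2 and Nrarp were not called. Hes5 (chromosome 4, 154960923 to 154962371, plus strand, GRCm38), a bHLH repressor of proneural genes, had 23.4, 312 and 290.1 CPM in KO 1, 2 and 3, against 18.3, 232 and 255 CPM in WT 1, 2 and 3. Each KO library was above the WT library of its number, by log2 ratios of 0.35, 0.43 and 0.19, but the low values in number 1 made the groups overlap. The log2 fold change was 0.32 ± 0.0687 with the block (95% interval 0.17 to 0.47, adjusted p = 0.0161), and 0.31 ± 1.14 without it (adjusted p = 0.999). The blocked call was lost without replicate 1 (adjusted p = 0.0891), without replicate 2 (0.108) and with KO 2 and KO 3 summed (0.0583), and DESeq2 with the block kept it (0.00172). Hes1, the related repressor with oscillating expression, had 55.7, 116 and 119 CPM in KO and 52.7, 115 and 133 CPM in WT. Its blocked log2 fold change was −0.03 ± 0.0689 (95% interval −0.18 to 0.13, adjusted p = 0.855), an interval that lies below the estimate for Hes5. The difference between Hes5 and Hes1 was not tested. In these bulk libraries, more cells with a transcript and more of it per cell cannot be told apart.

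Hey1, a Hes-related repressor, had 38.2, 119 and 118 CPM in KO, against 31.5, 105 and 111 CPM in WT. KO was above WT in each number, with a blocked log2 fold change of 0.18 ± 0.0663 and adjusted p = 0.118, and it was called without replicate 3 (0.0445). Nrarp, which encodes a small ankyrin-repeat protein that dampens Notch signalling, had 79.4, 106.5 and 105 CPM in KO and 60.5, 94.2 and 94.95 CPM in WT. KO was again above WT in each number, and its blocked log2 fold change of 0.24 ± 0.0706 had adjusted p = 0.0634. Nrarp was called when the block set number 1 apart from the rest (0.0465), without a low-count filter (0.0397) and without replicate 3 (0.0311), each of these with a block.

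Heyl and Hey2, the other Hey-family repressors, were near the floor of detection. Heyl (chromosome 4, 123233556 to 123249875, plus strand, GRCm38) had 13, 30 and 24 counts in KO, against 4, 13 and 12 counts in WT, or 0.316, 0.707 and 0.714 CPM in KO and 0.0870, 0.322 and 0.254 CPM in WT. KO was above WT in each number, and KO 1 lay within the WT range. The log2 fold change was 1.40 ± 0.384 with the block (95% interval 0.55 to 2.26, adjusted p = 0.0473) and 1.38 ± 0.574 without it (adjusted p = 0.859). The blocked call was lost with upper-quartile scaling (0.0537), RLE scaling (0.0513), no low-count filter (0.0502), DESeq2 (0.209), KO 2 and KO 3 summed (0.0928) and any 1 replicate left out (0.0910 to 0.128). Hey2 had 0, 19 and 10 counts in KO, against 3, 22 and 28 counts in WT. Hey2 was not called (adjusted p = 0.402 with the block), and its blocked log2 interval ran from −1.79 to 0.33.

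**Figure D3:**
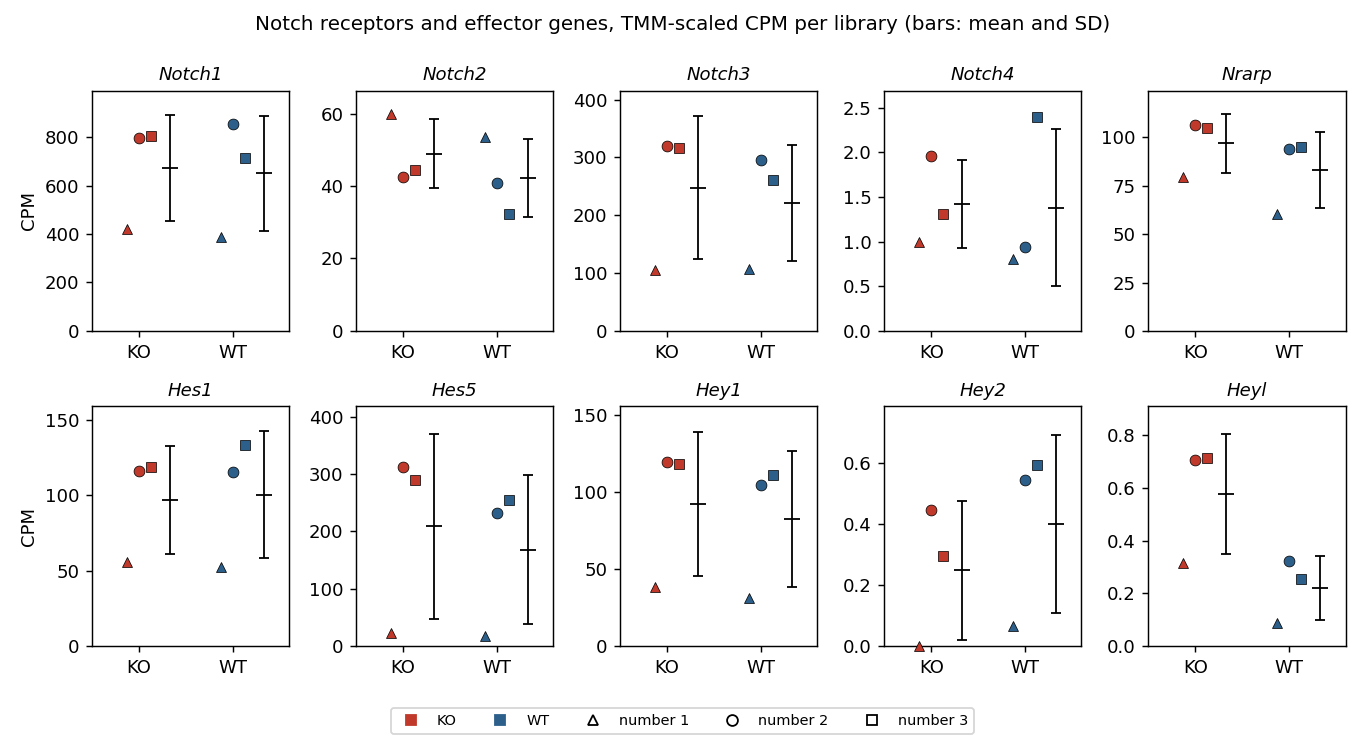
TMM-scaled CPM (vertical, from 0) of the 4 receptors and 6 effectors in each library, KO left of WT, with a symbol for each replicate number and bars for the mean and SD of 3 libraries. Hes5, Hey1, Hes1, Notch1 and Notch3 were lowest in number 1 of both genotypes, while Heyl lies higher in KO than in WT within each number.

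Among the 6 modulators Dtx1 fell in KO with the block and the others were not called. Dtx1 (chromosome 5, 120680202 to 120711927, minus strand, GRCm38), a Deltex ubiquitin ligase that binds the Notch intracellular domain, had 9.44, 18.6 and 17.5 CPM in KO 1, 2 and 3, from 388, 789 and 587 counts. WT 1, 2 and 3 had 14.2, 24.7 and 23.3 CPM, from 651, 995 and 1098 counts. Each KO library was below the WT library of its number, by log2 ratios of −0.58, −0.41 and −0.41, and the groups overlapped only through WT 1. The log2 fold change was −0.47 ± 0.0866 with the block (95% interval −0.66 to −0.27, adjusted p = 0.00803) and −0.45 ± 0.325 without it (adjusted p = 0.999). Dtx1 was the member called in every fit with a block, with KO 2 and KO 3 summed included (adjusted p = 0.0374). In numbers 2 and 3 alone, without a block, it was not called, as no member was. The mean level of Dtx1 was 15.2 ± 4.99 CPM in KO and 20.7 ± 5.71 CPM in WT (SD, n = 3 each).

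Of its paralogs, Dtx4 had 108, 96.4 and 101 CPM in KO, against 129.98, 106 and 100.2 CPM in WT, with a blocked log2 fold change of −0.13 ± 0.0700 (adjusted p = 0.304). Dtx3 had 35.3, 74.1 and 70.8 CPM in KO and 36.1, 73.9 and 77.9 CPM in WT, with a blocked log2 fold change of −0.06 ± 0.0670 (adjusted p = 0.678). Both had ranges that overlapped between the genotypes. Numb and Numbl, which encode adaptor proteins that oppose Notch signalling, and Dtx2 had blocked log2 fold changes of 0.02 to 0.06.

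The members differed more between replicate numbers than between genotypes. The comparison of libraries numbered 1 with numbers 2 and 3, with genotype as a covariate, was chosen because these libraries were known to stand apart, so its p-values describe them and do not test a question of the study. In it 26 of 36 members were called (72.2%), against 57.6% of all genes tested. Of these, 21 were lower in number 1 (58.3%, against 29.4% of genes) and 5 were higher (13.9%, against 28.2% of genes). The members' median log2 difference, number 1 over the others, was −0.45, and that of all genes −0.01. For 33 of 36 members this difference was larger in size than that between the genotypes with the block, with medians of 0.550 and 0.117 on the log2 scale. The same was not counted over all genes, of which 57.6% were called in this comparison and 9.79% between genotypes with the block. The ordering is thus not shown to be particular to the members. All 6 effectors were lower in number 1.

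Hes5 differed by −3.71 ± 0.0777 on the log2 scale (adjusted p = 6.82e-08, edgeR). In KO its mean in numbers 2 and 3 was 12.9 times that in number 1, and in WT 13.3 times, so the genotypes showed nearly the same ratio. Hey1 differed by −1.71 ± 0.0664, Numbl by −1.66 ± 0.0749, Dll3 by −1.54 ± 0.0769 and Mfng by −1.53 ± 0.107. Among the receptors Notch3 differed by −1.49 ± 0.0796 and Notch1 by −0.97 ± 0.0820, while Notch2 was higher in number 1 by 0.51 ± 0.0930. The other members higher in number 1 were Dll4 (0.99 ± 0.285), Rbpj (0.18 ± 0.0563), Maml1 (0.37 ± 0.0988) and Dtx4 (0.24 ± 0.0653). Numbl, Dll3, Mfng, Dll4 and Maml1 were named here after their values were seen.

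Astrocyte markers moved with the replicate number and with the genotype. Their summed level was 316 to 885 CPM in KO and 352 to 1067 CPM in WT, and 316 to 352 CPM in number 1, against 866 to 1067 CPM in numbers 2 and 3. Of 6 astrocyte markers 3 fell and 1 rose in KO with the block, against 9.79% of all genes called. Gfap, the intermediate filament of astrocytes, had 3.70, 64.0 and 63.3 CPM in KO, against 5.33, 149 and 159 CPM in WT. Neuronal markers summed to 648 to 775 CPM in KO and 563 to 783 CPM in WT, and oligodendrocyte-lineage markers to 3390 to 3645 CPM in KO and 3447 to 4198 CPM in WT. In number 1 the neuronal sum was 775 to 783 CPM, against 563 to 652 CPM in numbers 2 and 3. Marker by marker, 6 of 7 tested were lower in number 1 (3 called) and 1 was higher (called), with 57.6% of all genes called. Their median log2 difference was −0.57, so the sum does not stand for most of these markers. With the block, 3 of 7 neuronal markers tested fell in KO, against 6.46% of all genes called lower. Of 7 oligodendrocyte-lineage markers Pdgfra rose (0.56 ± 0.0696) and Sox10 fell (−0.92 ± 0.121) in KO with the block. Between replicate numbers 6 of these 7 were called lower in number 1, against 29.4% of all genes. Mural and mesenchymal markers, with Dcn at 0 counts in every library, summed to 8.30 to 19.4 CPM in KO and 7.09 to 33.7 CPM in WT, and to 7.09 to 8.30 CPM in number 1, against 18.2 to 33.7 CPM in numbers 2 and 3. The part of these cell types in the Notch pathway values was not tested.

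**Figure D4:**
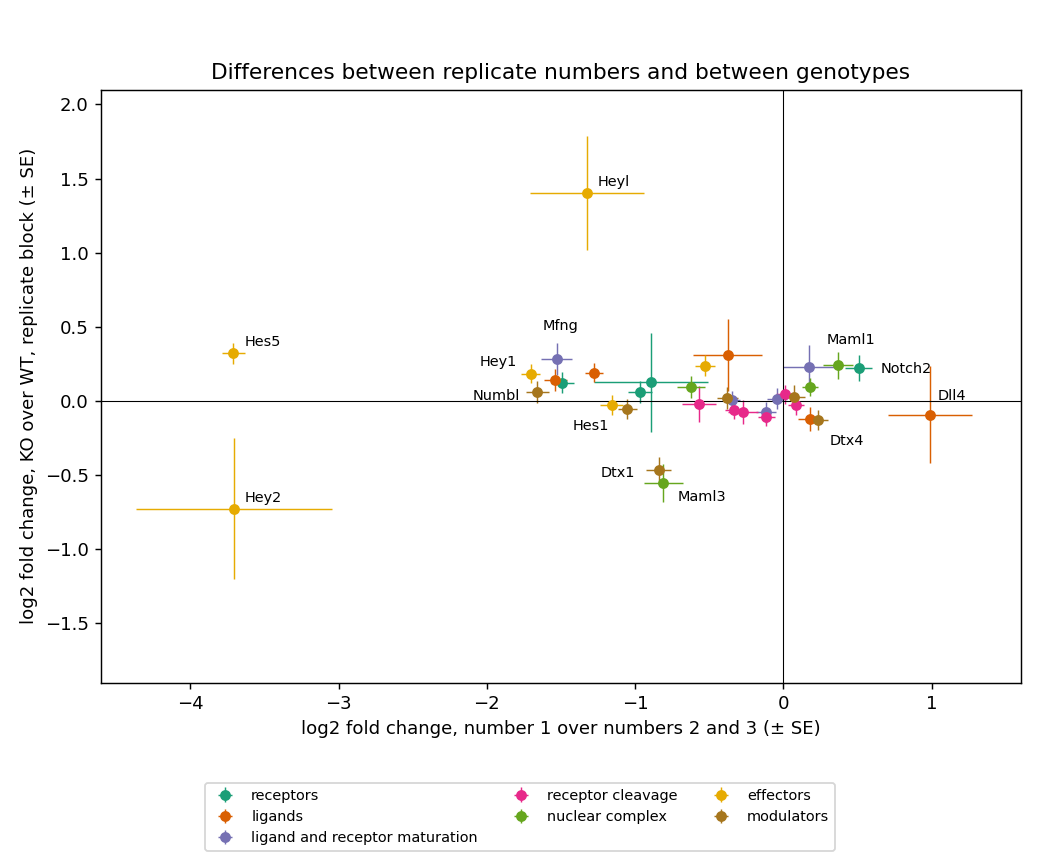
Log2 difference of number 1 over numbers 2 and 3 (horizontal) and log2 fold change of KO over WT with the replicate block (vertical) for the 36 members, coloured by role, with bars of 1 SE. The points spread along the horizontal axis to −3.71 (Hes5), while on the vertical axis all but Heyl and Hey2 lie between −0.55 (Maml3) and 0.32 (Hes5), and the horizontal place of Hey2 rests on 0 and 3 counts in the number 1 libraries.

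Outside the 36 members, 37 further genes tied to the pathway were read from the same fits, and 35 of them were tested (Hes2 and Hes3 had too few counts). These genes were chosen with earlier results of these data known, so their share called is a description and not a test. Without the block 0 were called in edgeR, and DESeq2 called 1, Dlk1. With the block 6 of 35 were called (17.1%, against 9.79% of all genes), 5 lower in KO (6.46% of all genes) and 1 higher (3.33% of all genes), and their median log2 fold change was −0.02. The largest of these differences was in Dlk1, a transmembrane protein with EGF repeats like those of delta ligands but without their DSL domain (chromosome 12, 109452823 to 109463336, plus strand, GRCm38). It had 10, 7 and 1 counts in KO 1, 2 and 3, against 64, 135 and 169 counts in WT 1, 2 and 3. All KO libraries lay below all WT libraries, at 0.146 ± 0.108 CPM in KO and 2.77 ± 1.20 CPM in WT. The log2 fold change was −4.08 ± 0.468 with the block (adjusted p = 0.000675) and −4.18 ± 0.677 without it (adjusted p = 0.156).

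Dner and Cntn6, neural adhesion molecules described as non-canonical Notch ligands, also fell in KO with the block. Dner had 60.4, 54.3 and 51.2 CPM in KO, against 94.1, 71.1 and 78.6 CPM in WT, with no overlap between the groups. Its log2 fold change was −0.55 ± 0.0731 with the block (adjusted p = 0.00128) and −0.56 ± 0.137 without it (adjusted p = 0.342). Cntn6, a contactin, had 60, 27 and 14 counts in KO and 203, 55 and 56 counts in WT, with a blocked log2 fold change of −1.42 ± 0.224 (adjusted p = 0.00335). In Cntn6 the number 1 library was highest in each genotype, so KO 1 lay within the WT range. Its paralog Cntn1, also described as a ligand, was not called (0.09 ± 0.0637, adjusted p = 0.430). Dlk1, Dner and Cntn6 were called in every fit with a block, with KO 2 and KO 3 summed included, and Dlk1 and Dner also in numbers 2 and 3 alone.

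Hes6, a Hes-family protein known to oppose HES1, had 73.2, 135 and 132 CPM in KO, against 107, 153 and 174 CPM in WT. Its blocked log2 fold change was −0.38 ± 0.0767 (adjusted p = 0.0128), opposite in sign to that of Hes5. Fbxw7, the F-box protein that targets the Notch intracellular domain for degradation, had 45.2, 41.3 and 39.5 CPM in KO and 54.3, 49.3 and 48.8 CPM in WT. The groups did not overlap, and the blocked log2 fold change was −0.28 ± 0.0678 (adjusted p = 0.0312). Neurl1a, a Neuralized ubiquitin ligase of ligands, had 14.2, 3.11 and 2.91 CPM in KO, against 10.4, 1.36 and 2.12 CPM in WT. It rose with the block by 0.65 ± 0.163 (adjusted p = 0.0344), and its groups overlapped widely because number 1 was high in both. The blocked calls of Hes6 (adjusted p = 0.0968), Fbxw7 (0.127) and Neurl1a (0.0534) were lost without replicate 1, and with KO 2 and KO 3 summed (0.0526, 0.114 and 0.111 in the same order). Without replicate 2 the calls of Fbxw7 and Neurl1a were lost too, while Hes6 kept its call.

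**Figure D5:**
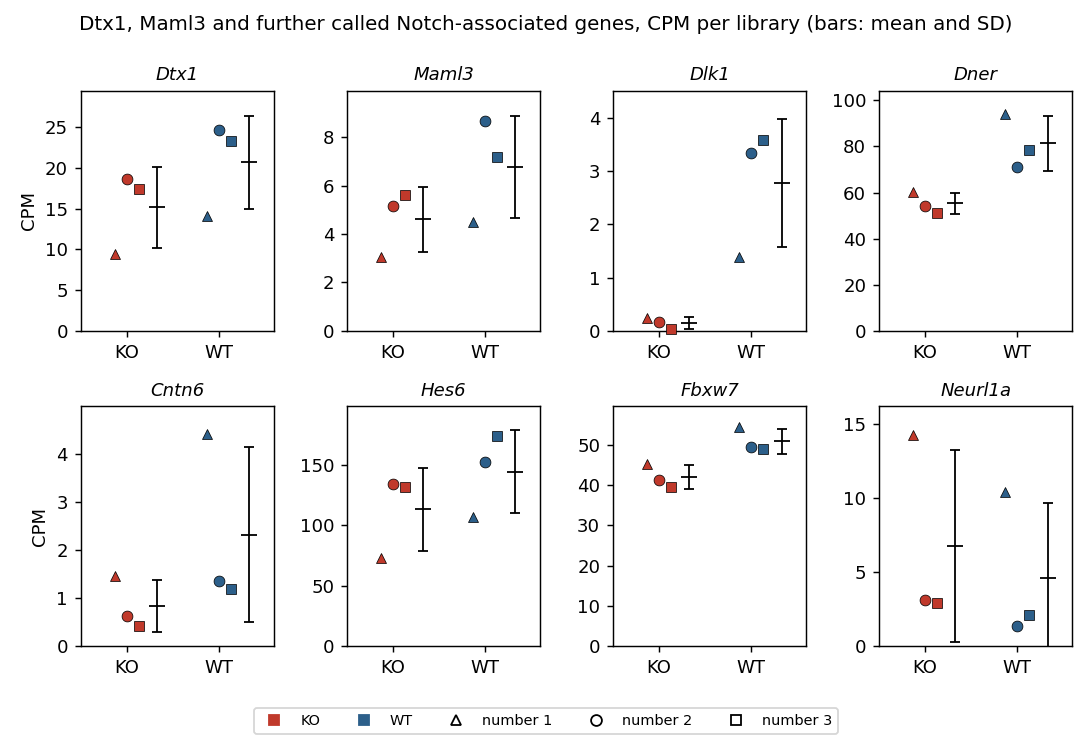
TMM-scaled CPM (vertical, from 0) of Dtx1, Maml3 and the 6 called genes outside the 36 members in each library, KO left of WT, with a symbol for each replicate number and bars for the mean and SD of 3 libraries. For Dlk1, Dner and Fbxw7 all KO points lie below all WT points, and for Dtx1, Maml3, Cntn6 and Hes6 each KO point lies below the WT point of its number.

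The proneural genes that Hes proteins repress were scarcely covered by the test. Of 10 listed, 4 passed the low-count filter and 0 were called with or without the block, with 0 at an unadjusted p under 0.05 without the block and 1 with it. Neurog2 had 3, 6 and 4 counts in KO and 2, 1 and 1 in WT, too few to test, and Neurog1 and Atoh1 had 0 counts in every library.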

How the data were processed

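RNA-seq libraries of 3 KO and 3 WT neural stem cell samples were analysed from the raw counts per gene symbol that the authors deposited. The submitters' processing notes list RSEM, Bowtie2, Trim Galore, cutadapt and FastQC, and the mm10 build. Versions, roles and the strand setting were not given in the sources used here. Group and replicate number came from the sample titles.

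In R 4.3.3 with edgeR 4.0.16, filterByExpr by group left 13683 of 24503 symbols, libraries were scaled by TMM, and a robust quasi-likelihood model was fitted to the counts of all 6 libraries without a block and tested two-sided, with Benjamini-Hochberg adjustment over all genes tested. A gene was called at adjusted p under 0.05. The SE is the size of the log2 fold change over the square root of F. CPM is TMM-scaled. Levels per kb use exon lengths and positions of GENCODE on GRCm38.

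KO and WT share replicate numbers. Over all genes, deviations from the group mean correlated by 0.914 (KO 1 with WT 1), 0.710 (KO 2 with WT 2) and 0.664 (KO 3 with WT 3), all over the limit of 0.1, so the numbers were taken as pairs and blocked values are given. Numbers 2 and 3 were not told apart (KO 3 with WT 2, 0.776, and KO 2 with WT 3, 0.690). The correlations thus set number 1 apart from the rest and cannot show that numbers 2 and 3 are pairs. KO 2 and KO 3 differed by more than counting noise (median chi-square 1.02, against 0.455) but less than WT 2 and WT 3 (5.25), so a fit with them summed was also run.

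The members, the further Notch-associated genes, the proneural list and the markers were chosen with earlier results of these data known. Per-library values are given for receptors, effectors and called genes, and for up to 2 highest members of each other role. DESeq2 1.42.0, other scalings, no low-count filter, no robust estimation and left-out libraries were the alternatives. Blocked fits without a replicate number keep few libraries to estimate the spread. Without replicate 2 the lowest adjusted p over all genes was 1.78e-91 (edgeR). Calls kept, gained or lost in these fits are therefore weak evidence. Values of 1 proneural gene are not reported here. The fits were also run on simulated counts. The outcome is not reported here, so that run does not show that the fits suit these libraries. Intervals are at 95%.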

Additional observations from a re-analysis of the deposited data

How the results depend on the processing

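Genes called over all genes numbered 8 without a block, 1340 with the replicate block, 1445 when the block set number 1 apart from the rest, 688 in that fit with KO 2 and KO 3 summed, and 743 in numbers 2 and 3 alone. With the replicate block the count was 1310 under upper-quartile scaling, 1251 under RLE scaling, 1661 without the low-count filter, 1194 in DESeq2, which called 241 with no block, and 1037, 1248 and 1456 without replicate 1, 2 and 3. Without a block and with 1 library left out it was 0 to 21, with 21 without WT 1.

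Members called numbered 0 without a block and in each fit without it that left out 1 library, 4 with the replicate block, 5 with number 1 as the block and 1 with KO 2 and KO 3 summed. With the replicate block they were 3 under either other scaling, 4 without the filter, 2 in DESeq2 and 1, 2 and 6 without replicate 1, 2 and 3. The further Notch-associated genes gave 0 without a block, 6 with the replicate block or RLE with it, 8 with number 1 as the block, 7 with upper-quartile scaling, DESeq2 or no filter with the block, 3, 7 and 8 in the blocked fit without replicate 1, 2 and 3, 3 with KO 2 and KO 3 summed, 2 in numbers 2 and 3 alone and 1 in DESeq2 with no block.

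Leaving out 1 library turned the sign of uncalled unblocked log2 fold changes, over ranges of −0.22 to 0.84 (Hes5), −0.21 to 0.30 (Notch1), −0.16 to 0.53 (Notch3), −0.25 to 0.70 (Notch4), −0.35 to 0.23 (Hes1), −0.22 to 0.53 (Hey1) and −0.62 to 1.97 (Neurl1a). Notch4 was also −0.032 in numbers 2 and 3 alone and −0.34 in the blocked fit without replicate 2, and Hes1 was 0.040 in the blocked fit without replicate 3. The cause was not tested. Depth limits Heyl, Hey2, Dll4, Jag2 and Notch4, which had at most 113 counts in any library.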
